A study of Homo sapiens with 4 samples.

Results

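The aryl hydrocarbon receptor axis was read here as 8 genes, of which 7 could be measured among 18323 genes on the arrays. They are the xenobiotic-metabolising cytochromes P450 CYP1B1, CYP1A1 and CYP1A2, the receptor AHR, its partners ARNT and ARNT2, and the feedback regulators AHRR and TIPARP. CYP1B1 was chosen by its difference between CAPE and DMSO on these same arrays, and the other genes by their known place in the pathway, with earlier results of these data in view. Differences with CAPE are therefore given for these genes as a description without a test. AHRR had no probe set of its own, since its 1 probe set is annotated to a second gene as well, and no value is given for it.

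RNA came from HK1EBV and HK1, a pair of established cell lines from nasopharyngeal carcinoma, an epithelial tumour. Cells of each line were kept for 24 h with 110 µM caffeic acid phenethyl ester (CAPE), a phenolic compound of propolis, or with 0.1% dimethyl sulfoxide (DMSO), the solvent control, and 1 array was hybridised for each of the 4 groups. By its name HK1EBV carries Epstein-Barr virus, but the labels say nothing more of the virus, of clones or of the time between the cultures. Values are on the log2 scale of RMA, a method that corrects background, gives arrays a common distribution and combines the probes of each probe set into 1 value.

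CYP1B1 lies on chromosome 2, CYP1A1, CYP1A2 and ARNT2 on 15, AHR on 7, ARNT on 1 and TIPARP on 3. AHR is a ligand-activated transcription factor of the bHLH-PAS family. Without ligand it is held in the cytosol by a complex of HSP90 and co-chaperones, and with ligand it enters the nucleus, pairs with ARNT and binds xenobiotic response elements, whose core reads GCGTG. The CYP1 genes are its best known targets, and their products oxidise polycyclic aromatic hydrocarbons, plant phenolics and estrogens. CYP1B1 is the CYP1 enzyme most typical of tissues outside the liver and is often high in epithelial tumours. AHRR and TIPARP are induced by the receptor and in turn restrain it.

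CYP1A1, CYP1A2 and TIPARP are tied to the receptor, and of them CYP1A2 alone was higher with CAPE in HK1, by 0.55. In HK1EBV it differed by -0.05, and all its values lay below the array medians. The start regions of these genes are shown, chosen with that difference in HK1 known. Each covers 250 bases before and 50 after the annotated start in RefSeq (GRCh38.p14), in the direction of the gene, with GCGTG or its reverse complement CACGC in capitals. The table held 6 of the 8 genes, and CYP1B1 and ARNT2 were not among them. AHR, ARNT and ARNT2 were also higher with CAPE in HK1. A link between the letters of a window and the CAPE difference was not tested. CYP1A1 lies on the minus strand at chr15:74725479-74725778, CYP1A2 on the plus strand at chr15:74748595-74748894, and the first of the annotated TIPARP starts on the plus strand at chr3:156674340-156674639.
CYP1A1: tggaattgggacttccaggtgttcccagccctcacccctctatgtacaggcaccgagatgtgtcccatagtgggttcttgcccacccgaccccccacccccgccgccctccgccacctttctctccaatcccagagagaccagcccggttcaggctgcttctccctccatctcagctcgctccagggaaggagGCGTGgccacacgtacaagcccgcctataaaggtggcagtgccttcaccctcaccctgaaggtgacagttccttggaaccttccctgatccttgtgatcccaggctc
CYP1A2: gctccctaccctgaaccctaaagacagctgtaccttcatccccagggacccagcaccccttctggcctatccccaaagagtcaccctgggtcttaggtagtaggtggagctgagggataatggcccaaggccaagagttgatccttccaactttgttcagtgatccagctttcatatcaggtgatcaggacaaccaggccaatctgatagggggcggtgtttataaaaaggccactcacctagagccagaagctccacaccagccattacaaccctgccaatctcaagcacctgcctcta
TIPARP: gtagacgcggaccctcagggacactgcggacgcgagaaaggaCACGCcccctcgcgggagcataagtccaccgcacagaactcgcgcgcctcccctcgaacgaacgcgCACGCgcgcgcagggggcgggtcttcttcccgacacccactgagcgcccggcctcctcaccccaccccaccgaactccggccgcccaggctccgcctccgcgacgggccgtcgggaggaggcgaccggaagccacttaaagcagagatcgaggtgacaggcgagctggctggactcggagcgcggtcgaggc
The CYP1A1 window held the core once, beginning 57 bases before the start, and that of CYP1A2 had 0 matches. The TIPARP window held 2, both as CACGC, beginning 208 and 142 bases before the start. The later TIPARP starts and ARNT had 0 matches, and AHR had 1, after its start. AHRR had 1 at its first annotated start, beginning 30 bases before it, and 2 at its second, beginning 247 and 42 bases before it. A TATAAA run in the direction of the gene began 32 bases before the start of CYP1A1 and 29 before that of CYP1A2. Of all 35116 promoter windows of this length, 36.5% held the core on either strand and 7.33% held TATAAA, so a match describes the letters and not a bound site.

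After the filter on dim probe sets (mean value at or above 0.997, the 25th percentile), 15194 genes were tested, the 7 measured members among them. The array medians lay between 2.23 and 2.27, and arrays correlated with each other at r = 0.988 to 0.991 across probe sets within a line or a treatment. Of 10 measured epithelial markers, 9 stood above the array median on all 4 arrays. KRT5 was at 9.49 to 10.25 and KRT8 at only 2.26 to 3.05. CLDN1 stood below the median on every array, at 0.78 to 0.98. Of the markers of other cell types, 5 of 7 for fibroblasts, 5 of 7 for leukocytes and 5 of 6 for endothelium stood below the median on every array. The leukocyte gene PTPRC was at 0.46 to 0.49. In each of these lists 1 gene stood above the median on every array. These were COL1A1 at 3.42 to 3.64, CD68 at 7.28 to 9.03 and CLDN5 at 2.79 to 2.94. CD68, a lysosomal protein gene counted among leukocyte markers, was higher with CAPE by 1.14 in HK1EBV and by 1.23 in HK1, and its part in the results below was not tested. With 1 array in each group, values inside a line or a treatment could not be checked against replicates, and the number of arrays limits all precision. Whether cultures were grown separately is not in the labels. In such bulk samples fewer cells expressing a gene and less RNA per cell cannot be told apart.

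**Figure D1:**
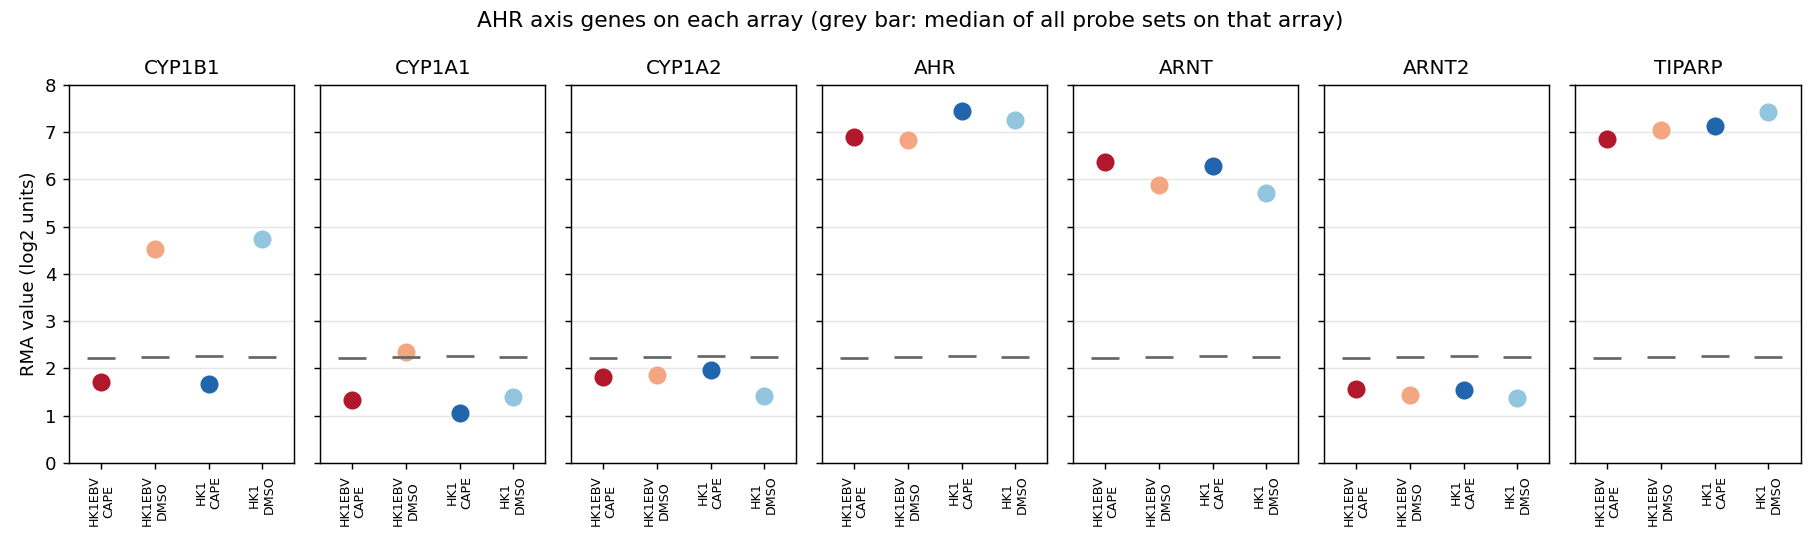
RMA values (log2 units) of the 7 measured genes of the axis, 1 panel for each gene and 1 point for each array, with grey bars at the median of all probe sets on that array. CYP1B1 stood at 1.72 and 1.67 on the CAPE arrays and at 4.52 and 4.74 on the DMSO arrays, and no other gene of the axis has treatments so far apart in both lines.

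CYP1B1, which hydroxylates estradiol and activates aromatic hydrocarbons, was the gene of the axis with the widest range. It stood at 1.72 in HK1EBV with CAPE, against 4.52 in HK1EBV with DMSO. In HK1 it stood at 1.67 with CAPE, against 4.74 with DMSO. Both CAPE arrays lay below the array median and both DMSO arrays above it. The difference, CAPE minus DMSO, was -2.80 in HK1EBV, or 6.97-fold, and -3.07 in HK1, or 8.39-fold, with a mean of -2.93 ± 0.19 (SD, n = 2 lines). The background level of its probes was not measured here, so whether the CAPE values sit at it, and these folds are lower bounds, was not tested. Among the genes tested it was the lowest difference in HK1 and the second lowest in HK1EBV. The lines differed far less than the treatments, by 0.05 with CAPE and by -0.22 with DMSO (HK1EBV minus HK1). The order from high to low was HK1 with DMSO, HK1EBV with DMSO, HK1EBV with CAPE and HK1 with CAPE, and without replicates the order of the lines inside a treatment cannot be judged.

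CYP1A1, the classic inducible target of the receptor, was dim on all arrays but that of HK1EBV with DMSO. It stood at 1.34 in HK1EBV with CAPE, against 2.36 with DMSO, and at 1.05 in HK1 with CAPE, against 1.39 with DMSO. The differences were -1.02, or 2.03-fold, in HK1EBV and -0.34, or 1.27-fold, in HK1. In both lines the CAPE array was the lower of the pair, and the HK1EBV DMSO array stood apart from the other arrays. CYP1A2, a paralog best known from liver, stood at 1.82 in HK1EBV with CAPE and 1.87 with DMSO, and at 1.96 in HK1 with CAPE and 1.41 with DMSO. Its differences were -0.05 in HK1EBV and 0.55 in HK1, and all its values lay below the array medians. The CYP1A genes are similar in sequence, and how far their probes share signal was not tested.

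The receptor gene AHR stood well above the array medians everywhere, at 6.89 in HK1EBV with CAPE and 6.84 with DMSO, and at 7.45 in HK1 with CAPE and 7.26 with DMSO. Its differences with CAPE were 0.05 and 0.19. Both HK1EBV arrays lay below both HK1 arrays, and the share of all genes in such an order was not counted. ARNT, which pairs with AHR and also with the hypoxia-inducible factors, stood at 6.37 in HK1EBV with CAPE, against 5.88 with DMSO, and at 6.29 in HK1 with CAPE, against 5.70 with DMSO. It was higher with CAPE in both lines, by 0.50 in HK1EBV and 0.59 in HK1, a mean of 0.54 ± 0.07 (SD, n = 2 lines) or 1.46-fold. Of all genes tested, 32.1% were higher in both lines. ARNT2, the paralog typical of nervous tissue, stayed between 1.38 and 1.58 on the arrays, below every array median, with differences of 0.14 and 0.17.

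TIPARP, a mono-ADP-ribosyltransferase that the receptor induces and that limits its activity, was among the brighter genes of the axis. It stood at 6.86 in HK1EBV with CAPE, against 7.06 with DMSO, and at 7.13 in HK1 with CAPE, against 7.44 with DMSO. The CAPE array was the lower of each pair, by 0.19 in HK1EBV and 0.31 in HK1, and the treatments overlapped, since HK1 with CAPE lay above HK1EBV with DMSO. The mean difference was -0.25 ± 0.08 (SD, n = 2 lines).

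Counted together, 3 of the 7 measured genes were lower with CAPE in both lines (CYP1B1, CYP1A1 and TIPARP), 3 were higher in both (AHR, ARNT and ARNT2), and CYP1A2 differed in sign between the lines. Of all genes tested, 29.5% were lower and 32.1% higher in both lines. A difference of at least 2-fold, counted without a test, was reached by CYP1B1 and CYP1A1 in HK1EBV, where 0.533% of all genes were that much lower, and by CYP1B1 alone in HK1, where 0.684% were. CYP1B1 was thus the 1 member at least 2-fold lower in both lines, as were 0.204% of all genes. As CYP1B1 had been chosen from this contrast, nothing is read from these counts.

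**Figure D2:**
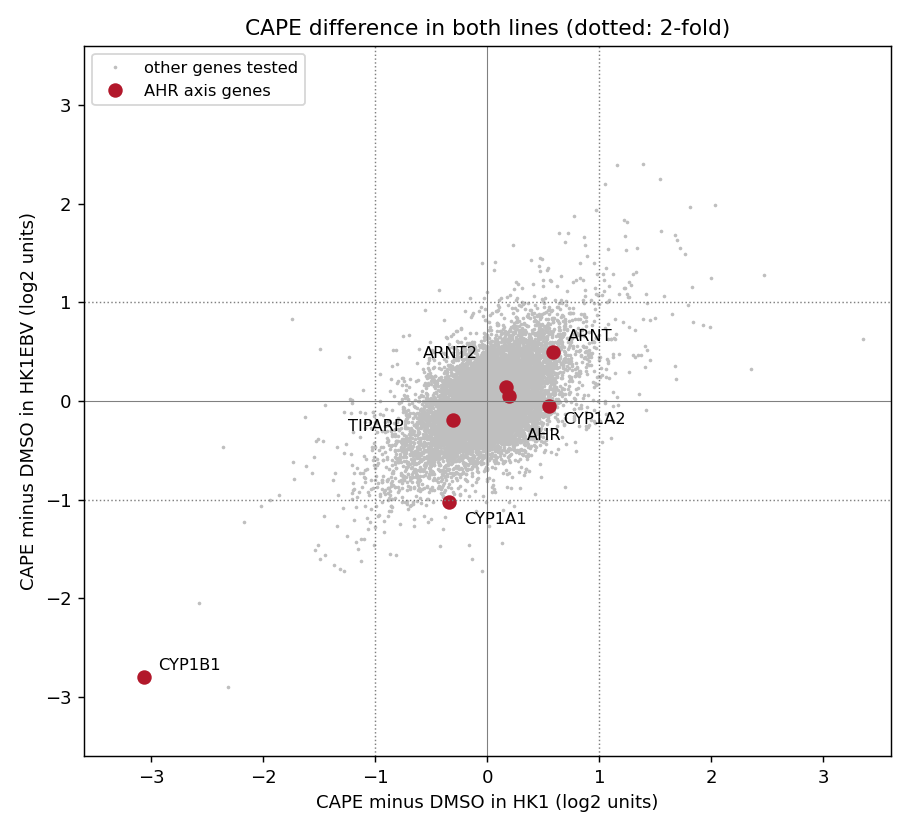
CAPE minus DMSO (log2 units) in HK1 on the horizontal axis and in HK1EBV on the vertical axis for 15194 genes tested (grey) and the 7 measured genes of the axis (red), with dotted lines at 2-fold. CYP1B1 lies at the lower left, at -3.07 and -2.80, and the other members lie nearer the centre, CYP1A1 at -0.34 and -1.02.

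The next comparison asked whether the axis differed between the lines over both treatments, a contrast that had not been used to choose the genes. Of the 7 genes, 0 passed an adjusted p of 0.05 (limma with cell line and treatment as terms, two-sided, Benjamini-Hochberg adjustment over all genes tested), and 3 had an unadjusted p under 0.05. Over all genes 23.1% had such an unadjusted p and 2.9% passed, 200 higher and 240 lower in HK1EBV, a split of 865 and 661 once arrays were shifted to one median. None (0) of the 7 was 2-fold apart between the lines in either treatment, against 2.99% of all genes 2-fold apart in 1 treatment or both.

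AHR was lower in HK1EBV than in HK1 by 0.56 with CAPE and by 0.42 with DMSO, and the mean difference was -0.49 ± 0.11 (moderated SE of limma, n = 2 treatments; limma adjusted p = 0.0949). CYP1A1 was higher in HK1EBV by 0.29 with CAPE and 0.97 with DMSO, a mean of 0.63 ± 0.19 (limma adjusted p = 0.147). Both passed once 57 genes with a residual of 0 were left out of the fit, at a limma adjusted p of 0.0361 for AHR and 0.0332 for CYP1A1, and both missed without the treatment term, at 0.283 and 0.566. Their adjusted p values lay in these ranges over all settings tried. Without the treatment term 0 of all genes passed. TIPARP was lower in HK1EBV in both treatments, with a mean of -0.32 ± 0.11 (limma adjusted p = 0.186, or 0.125 to 0.494 over the settings tried). The differences of CYP1B1, CYP1A2, ARNT and ARNT2 were -0.09 ± 0.12, 0.16 ± 0.17, 0.13 ± 0.11 and 0.04 ± 0.11, below their SE for all but ARNT, which was little above it (limma adjusted p between 0.574 and 0.889). For CYP1B1 and CYP1A2 the sign itself differed between the treatments.

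**Figure D3:**
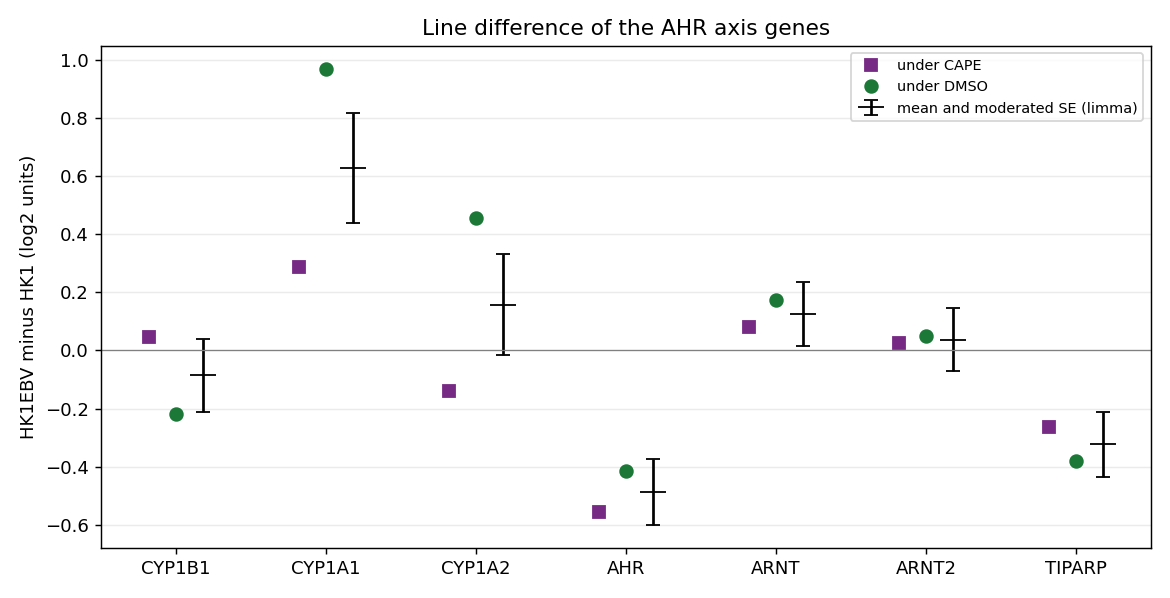
HK1EBV minus HK1 (log2 units) for each measured gene of the axis, under CAPE (squares), under DMSO (circles) and as the mean of both with the moderated SE of limma (bars). AHR and TIPARP lie below 0 in both treatments, at means of -0.49 and -0.32, and CYP1A1 lies above 0 at 0.63, with 0.97 under DMSO and 0.29 under CAPE.

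How far the CAPE difference in HK1EBV departed from that in HK1 is given without a test, as the design leaves it no residual. It was largest in size for CYP1A1, at -0.68, and for CYP1A2, at -0.60. For CYP1B1 it was 0.27, against differences of -2.80 and -3.07 in the lines. For AHR, ARNT, ARNT2 and TIPARP it lay between -0.14 and 0.12.

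The genes whose values over the 4 arrays were most like those of CYP1B1 were taken as the 6 with the smallest Euclidean distance, each gene centred on its own mean. This describes a pattern in 4 arrays only, and CYP1B1 had been chosen for it. H1-1, a linker histone gene among similar copies, was nearest, at a distance of 0.65, with 3.10 and 2.80 on the CAPE arrays of HK1EBV and HK1, against 5.15 and 5.38 on the DMSO arrays. ALDH1A3, which makes retinoic acid from retinaldehyde, followed at 0.66, with 5.65 and 5.64 on the CAPE arrays, against 8.54 and 7.95 on the DMSO arrays. It was the 1 gene lower than CYP1B1 in HK1EBV, at a difference of -2.90. The next were UTP20, RRS1 and ESF1, genes of ribosome assembly, at distances of 1.41, 1.44 and 1.47, and the zinc transporter gene SLC39A10 at 1.46. Their mean differences with CAPE lay between -1.55 and -1.51, well short of that of CYP1B1.

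Genes often described as responsive to AHR ligands, besides the members, lay on both sides of 0. Of 30 on the list, 20 were tested, and with CAPE 7 were lower in both lines, 9 higher in both and 4 of mixed sign. The list medians were 0.06 in HK1EBV and 0.07 in HK1, beside 0.00 and 0.02 over all genes tested. In 1 line or both, 4 of the 20 were at least 2-fold apart, where 2.11% of all genes were. This list and those below were chosen with earlier results of these data known, so their counts are a description only. IL1B, an inflammatory cytokine gene, stood at 7.48 and 8.06 in HK1EBV and HK1 with CAPE, against 8.92 and 9.23 with DMSO. EREG, an EGF receptor ligand gene, stood at 6.27 and 6.62 with CAPE, against 7.46 and 7.69 with DMSO. Both were lower with CAPE in both lines, IL1B by a mean of 1.30 and EREG by 1.13. ABCG2, a transporter gene whose product exports xenobiotics, differed by -0.92 in HK1EBV and -0.80 in HK1.

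KYNU, whose product kynureninase degrades kynurenine, itself a ligand of AHR, was higher with CAPE. It stood at 4.72 in HK1EBV and 5.65 in HK1 with CAPE, against 3.75 and 3.86 with DMSO, a difference of 0.97 and 1.79. STC2, a secreted glycoprotein gene, was higher with CAPE by 0.38 and 1.08. NQO1, a quinone reductase gene that both AHR and NRF2 induce, was higher by 0.30 and 0.09, and ALDH3A1 differed by -0.74 and -0.19. Between the lines STC2 fell by 1.51 ± 0.19 in HK1EBV (moderated SE of limma, n = 2 treatments; limma adjusted p = 0.0425) and was the 1 of the 20 to pass, with 9 at an unadjusted p under 0.05, beside 2.9% and 23.1% of all genes. It missed without the filter on dim probe sets, at a limma adjusted p of 0.124, and without the treatment term, at 0.293. In both settings 0 of all genes passed, so these misses are not particular to STC2. LYPD3 and MYC differed between the lines by 0.82 and -0.69 (limma adjusted p = 0.0740 and 0.0539).

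The cytosolic complex that holds AHR and the ligase that degrades it had 8 genes tested, and 5 were lower with CAPE in both lines and 0 higher in both, beside 29.5% and 32.1% of all genes. None (0) of them was at least 2-fold apart, where 2.11% of all genes were in 1 line or both. The list medians were -0.10 in HK1EBV and -0.24 in HK1. HSP90AB1, the constitutive HSP90 gene, differed by -0.16 and -0.46, and PTGES3, which encodes the co-chaperone p23, by -0.17 and -0.31. RBX1, a ring protein of cullin ligases, differed by -0.59 and -0.23. Between the lines 0 of the 8 passed in limma, with 1 at an unadjusted p under 0.05, beside 2.9% and 23.1% of all genes. That 1 was DDB1, at 0.32 (limma adjusted p = 0.183).

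Among 16 tested coactivators, corepressors and partner factors of AHR, NRIP1 alone was at least 2-fold apart in 1 line or both, where 2.11% of all genes were. This gene, for a corepressor of nuclear receptors, stood at 4.65 in HK1EBV and 4.65 in HK1 with CAPE, against 5.85 and 5.84 with DMSO. Its differences were -1.20 and -1.19, so the lines were nearly alike on both treatments. RELB, an NF-κB subunit that can pair with AHR, was higher with CAPE by 0.49 and 0.35, and ESR1, the estrogen receptor gene, by 0.29 and 0.50 at levels below the array medians. The list medians were 0.04 and 0.03. RB1 and EP300 were the genes of this list furthest apart between the lines, at -0.74 and -0.57 (limma adjusted p = 0.0716 and 0.0703). None (0) of the 16 passed in limma, with 5 at an unadjusted p under 0.05, beside 2.9% and 23.1% of all genes.

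Of the other bHLH-PAS and PAS genes 14 were tested. With CAPE 0 of them were at least 2-fold apart, where 2.11% of all genes were in 1 line or both. EPAS1, the hypoxia-inducible factor that also pairs with ARNT, was higher by 0.31 in HK1EBV and 0.82 in HK1, while HIF1A differed by -0.25 and -0.13. The circadian genes CLOCK and PER1 differed by -0.33 and 0.49 in HK1EBV and by -0.58 and 0.37 in HK1. Between the lines PER1 and PER2 differed by 0.67 and -0.64 (limma adjusted p = 0.0577 and 0.0624). None (0) of the 14 passed in limma, with 4 at an unadjusted p under 0.05, beside 2.9% and 23.1% of all genes.

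Cytochromes P450 need electrons and heme. Of 15 genes tested that supply them, 9 were higher with CAPE in both lines and 5 lower in both (32.1% and 29.5% of all genes). At least 2-fold apart were 0 of them, where 2.11% of all genes were in 1 line or both. The medians were 0.10 in HK1EBV and 0.09 in HK1. POR, the reductase that feeds microsomal P450 enzymes, was higher by 0.60 in HK1EBV and 0.09 in HK1. ALAS1, at the first step of heme synthesis, was higher by 0.49 and 0.22 and HMOX1, which breaks heme down, by 0.31 and 0.40. CYB5B differed by -0.38 in both lines. Between the lines FECH, at the last step of heme synthesis, differed by -0.78 (limma adjusted p = 0.0583). Of the 15, 0 passed in limma, with 5 at an unadjusted p under 0.05, beside 2.9% and 23.1% of all genes.

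Enzymes that make or clear the substrates and products of CYP1 enzymes had 14 genes tested, 9 of them higher with CAPE in both lines and 1 lower in both, beside 32.1% and 29.5% of all genes. The list was chosen with earlier results of these data known, so nothing is read from these counts. The 3 at least 2-fold apart, as were 2.11% of all genes, were the aldo-keto reductases AKR1C1, AKR1C2 and AKR1C3. They reduce steroids and oxidise dihydrodiols of aromatic hydrocarbons. AKR1C3 stood at 7.22 in HK1EBV and 5.97 in HK1 with CAPE, against 5.23 and 3.93 with DMSO. These paralogs are close in sequence, so the share of each is uncertain. The mean difference of AKR1C1 was 1.89, or 1.15 when its probe sets were averaged. EPHX1, the microsomal epoxide hydrolase gene, was higher by 0.69 and 0.58. Between the lines AKR1C3 rose by 1.27 in HK1EBV (limma adjusted p = 0.0258) and was the 1 of 14 to pass, with 7 at an unadjusted p under 0.05, beside 2.9% and 23.1% of all genes. It missed without the filter, at 0.119, and without the treatment term, at 0.657, both adjusted p values of limma. Under either change 0 of all genes passed. Of the 13 genes that make or use up tryptophan-derived ligands of AHR, 6 were tested, and IDO1, IDO2, KMO and TDO2 fell under the filter. Apart from KYNU, those with the largest mean differences were KYAT1 at 0.27 and AFMID at -0.17.

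Among all other cytochromes P450, 30 of 45 were tested, and 19 of these had a mean below the array medians. With CAPE 10 were lower in both lines, 6 higher in both and 13 of opposite sign (29.5% and 32.1% of all genes were lower and higher in both), with medians of -0.05 in HK1EBV and -0.01 in HK1. CYP4F11, a fatty acid hydroxylase gene with close paralogs, stood at 6.33 in HK1EBV and 7.35 in HK1 with CAPE, against 4.78 and 6.01 with DMSO. CYP51A1, the lanosterol demethylase of cholesterol synthesis, differed by -0.11 in HK1EBV and by -1.14 in HK1. These were the 2 other P450 genes at least 2-fold apart with CAPE, as were 2.11% of all genes, and CYP1B1 differed from its DMSO values by more than either. CYP39A1, CYP4F3 and CYP2S1 were higher by means of 0.46, 0.35 and 0.34. For CYP39A1 the difference was uneven, 0.73 in HK1EBV and 0.20 in HK1. Its DMSO values of 1.02 and 0.98 lay near the filter value. Between the lines CYP4F11 fell by 1.13 and the vitamin D hydroxylase gene CYP2R1 by 1.04 in HK1EBV (limma adjusted p = 0.0347 and 0.0360), and 5 of 30 had an unadjusted p under 0.05, beside 2.9% and 23.1% of all genes. Both missed without the filter on dim probe sets, at a limma adjusted p of 0.119, and without the treatment term, at 0.577 and 0.203. These are settings in which 0 of all genes passed. In HK1EBV, CYP2R1 stood at 0.83 with CAPE and 1.08 with DMSO, against 1.82 and 2.18 in HK1. All these values lay below the array medians. The gene reached the filter only through its HK1 values, so its p-value cannot be taken as support for a line difference. CYP2S1, also a listed AHR target, differed by 0.67 (limma adjusted p = 0.0545).

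**Figure D4:**
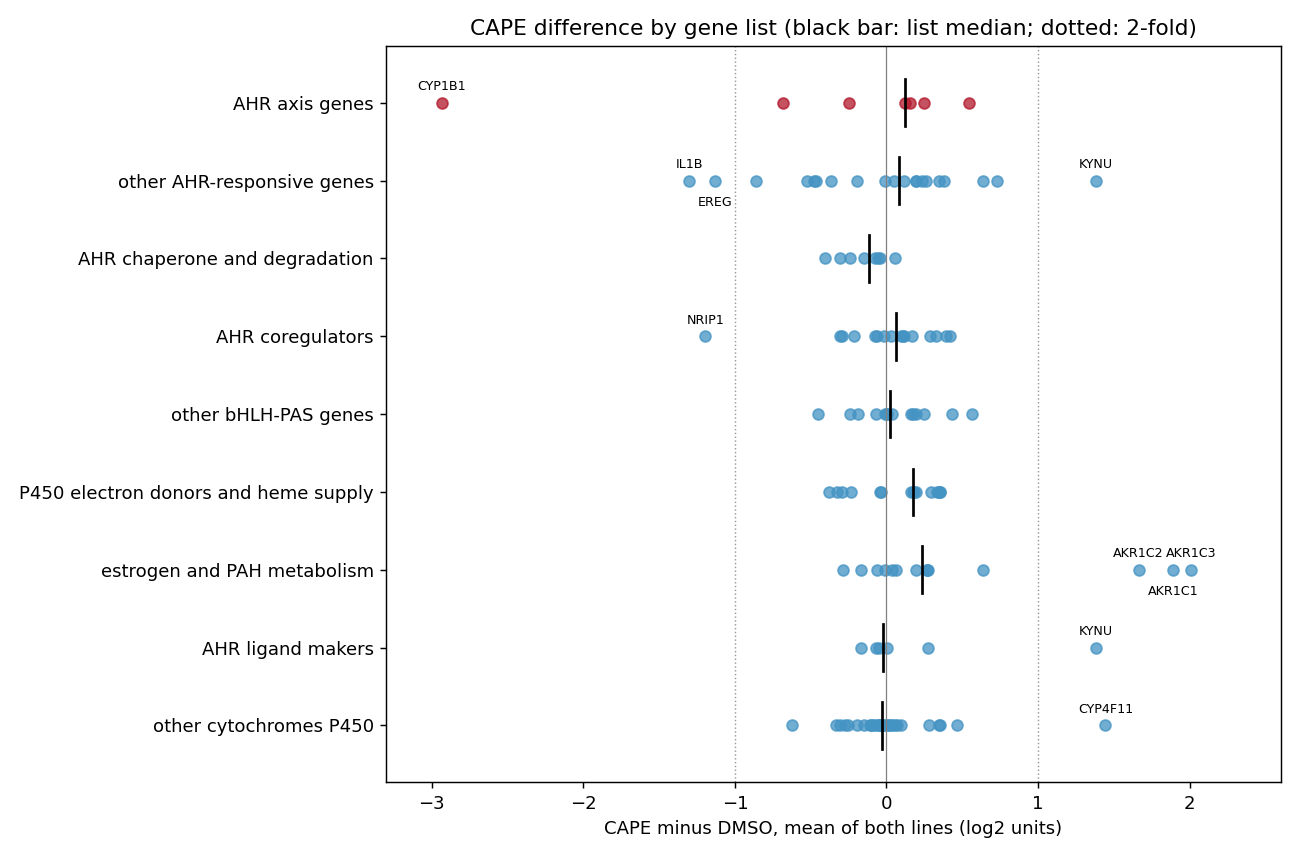
CAPE minus DMSO as the mean of both lines (log2 units), 1 point for each gene tested, by list, with a black bar at the list median and dotted lines at 2-fold. CYP1B1 lies furthest to the left at -2.93, IL1B, EREG and NRIP1 lie left of the 2-fold line, and KYNU, CYP4F11 and the AKR1C genes lie right of it.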

How the data were processed

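RNA of 4 cultures was measured on single-colour Affymetrix arrays, from biotin-labelled cDNA, per the labels' protocols. The deposited values per probe set, read here as log2, were made by the authors with RMA, per the submitters' processing notes. The base of the log was taken as 2, and the sources used here do not state it, nor any later shift, the RMA version or a genome build. Values ran from -0.19 to 11.9. The platform annotation paired 18612 of the 25800 probe sets with a single symbol and 954 with more than 1, and left 6234 unnamed. Of those with 1 symbol, 18583 matched a RefSeq gene (GRCh38.p14) by Entrez number. Where probe sets shared a gene, the brightest by mean was kept, and genes at or above the 25th percentile of probe set means were tested.

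Line differences were tested by lmFit and eBayes (limma 3.58.1, R 4.3.3), fitted to the 4 arrays with treatment as a further term, 1 residual degree of freedom and Benjamini-Hochberg adjustment. The residual of this fit is how far the CAPE difference departed between the lines, moderated by a spread shared over genes. A p-value from it does not measure a spread between replicates, and the residual may be technical. A response to CAPE that differs between the lines counts as error in it. A gene with equal values on all 4 arrays still had a moderated SE of 0.11, which came from the shared spread alone. The procedure was tested on simulated data. Differences within 1 line or 1 treatment are values with no test. The members and lists were chosen with earlier results of these data known. Named genes are the members, the 6 nearest to CYP1B1, and of each list those with the largest mean CAPE difference and the largest line difference. Up to 5 and 3 were taken from the AHR-responsive genes and the other cytochromes P450, and fewer from the other lists. ALDH3A1, EPHX1, HIF1A, NQO1, POR and the genes of ligand synthesis under the filter were named in addition, after their values were seen. So were the markers KRT5, KRT8, CLDN1, PTPRC, COL1A1, CD68 and CLDN5. Alternatives were no filter or the 50th percentile, quantile normalization, a shift of arrays to one median, the mean of probe sets, other variance priors, no treatment term, no genes of zero residual (a tolerance of 1e-08), and other thresholds.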

Additional observations from a re-analysis of the deposited data

Results flagged for a closer look

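Of the members and the tested genes named by rule from the lists and by likeness to CYP1B1, 3 differed with CAPE in opposite directions in the lines, as did 5417 of 15194 genes tested. CYP1A2 differed by -0.05 in HK1EBV and 0.55 in HK1, a difference of -0.60 between the changes (HK1EBV minus HK1). KYAT3, a kynurenine aminotransferase gene, differed by 0.18 and -0.28, a difference of 0.46. PER2 differed by -0.06 and 0.08, a difference of -0.14. With 1 array in each group these differences were not tested. Genes named for a large mean CAPE difference or for likeness to CYP1B1 seldom have opposite signs by construction. The count among named genes therefore cannot be compared with that over all genes.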

How the results depend on the processing

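The CAPE difference of CYP1B1 lay between -2.94 and -2.93 under every filter, scaling and probe set rule tried. The count of genes that passed between the lines, 440, was 0 in limma with no filter on dim probe sets (3519 at an unadjusted p under 0.05) and 0 with no block, the treatment term left out (2000 at an unadjusted p under 0.05). It was 1296 with a filter at the 50th percentile, 1526 with arrays shifted to one median, 1324 after quantile normalization, 959 with a robust variance prior, 1756 without genes of zero residual, 1390 at an adjusted p threshold of 0.1 and 183 with a 2-fold limit added. CYP1A1, CYP1A2 and ARNT2 had no value under the filter at the 50th percentile. Of the members, 1 passed with the filter at the 50th percentile (AHR), 1 with arrays shifted to one median (CYP1A1), 2 without genes of zero residual (AHR and CYP1A1) and 1 at the threshold of 0.1 (AHR). By construction fewer genes are tested at the 50th percentile, and the threshold of 0.1 is looser. With arrays shifted to one median 15194 genes were tested, as in the main fit, and 15137 without genes of zero residual. Why more genes passed in those settings was not tested. The line difference of ESR1 changed sign to 0.0057 with arrays shifted to one median and to 0.0065 after quantile normalization, and that of NRIP1 to -0.021 after quantile normalization. Leaving out an array would leave the fit no residual degree of freedom, so this was not run. No paired analysis was possible because each group has 1 array and replicate number, and treatment alone served as the block between the lines. Signal below the array medians limits CYP1A1, CYP1A2, ARNT2 and the CAPE values of CYP1B1.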

Other observations

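CYP1B1-AS1, a long noncoding RNA named as antisense to CYP1B1, fell under the filter on dim probe sets. It stood at 0.92 in HK1EBV with CAPE, against 1.01 with DMSO, and at 0.62 in HK1 with CAPE, against 0.81 with DMSO. The CAPE array was the lower of each pair, by 0.09 in HK1EBV and 0.19 in HK1. It was looked up for its name, after the values were seen.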
